A study of Homo sapiens with 4 samples.

Results

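Kinesins are motor proteins that use ATP to walk along microtubules or to shorten them. The mitotic motors build the spindle, move chromosomes and cut the dividing cell in 2, and their genes are known to be switched on in G2 and mitosis. The transport motors carry vesicles, mitochondria and ciliary cargo in cells that divide and in cells that do not. The genes taken here are the 42 whose symbol on the array is KIF or KIFC followed by a number and at most 1 letter, of 17687 named genes, and each of them had 1 probe set. They were sorted by known role into 10 mitotic motors, 15 transport motors, 6 kinesins of the cilium and centriole, 6 further kinesins of cell division and 5 others. Antisense RNAs and the kinesin binding protein were not counted as members.

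RNA came from 786-O (CRL-1932), an established human clear cell renal cell carcinoma line that lacks functional VHL, grown in medium with serum. The 2 untreated samples and the 2 samples treated with MCP-1, the chemokine also called CCL2, were each measured on 1 Clariom S array, and the untreated cells were of the same passage. By its label each treated sample had 16 h with MCP-1 at 5 ng/mL, but the methods of the study state a longer exposure. The values are log2 signals that the authors normalized, and the design asks whether MCP-1 changed the RNA of the cells. All 7 markers of renal carcinoma cells, such as PAX8, CDH6 and VIM, lay above background on both untreated arrays, while none of the 5 markers of proximal tubule, of the 5 of monocytes and macrophages or of the 5 of endothelium did. Background here means the 90th percentile of 612 negative control probe sets on the same array, which was between 6.36 and 6.70 on the 4 arrays. MCP-1-treated replicate 2 correlated with the others at r of 0.993, and the other 3 with one another at r between 0.9945 and 0.9951, across genes of single arrays, which are not independent replicates. Titles call the treated samples biological replicates, and no source used here says whether the untreated ones came from separate cultures, so the p-values measure the spread between these arrays.

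The promoters of the mitotic motors shared letters that those of the transport motors mostly lacked. The CHR, a short element of genes expressed in G2 and mitosis, is known to be bound by the MuvB complex, which recruits repressors in resting cells and B-MYB and FOXM1 in dividing ones. Its letters, TTTGAA on either strand, occurred in 7 of the 10 mitotic motor promoters and in 1 of 11 listed for transport motors, against 12% of 14250 promoters of genes on the array. The CCAAT box, which is bound by NF-Y and was searched as CCAAT on either strand, occurred in 8 of the 10 and in 3 of the 11, against 36.4% of all. Both motifs were present in 6 of the 10 mitotic promoters, against 4.97% of all, and both can share a letter at their edge. The letters were not particular to the 10 mitotic motors: of 6 promoters of the further division kinesins, 3 held both motifs. A promoter here is the 300 bases from 250 before to 50 after a gene's first listed start in RefSeq (GRCh38.p14). No promoter was listed for KIF5A, KIF13B, KIFC2 and KIFC3. Only these exact letters were searched, so a variant of the CHR or of the CCAAT box was not counted. A match of letters is a description and not a binding site.

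The mitotic promoters with the CHR letters are shown from 80 bases before the start to 20 bases after it. KIF20A, which had the highest log2 fold change among the mitotic motors and no TTTGAA on either strand, is shown too. So is KIF5B, the transport motor whose CHR letters begin at position -140, outside the stretch shown (position -1 is the base before the start). Capitals mark the CHR letters (TTTGAA, or TTCAAA where read on the other strand) and the CCAAT box (CCAAT or ATTGG).
KIF11 (chr10:92593050-92593149, plus strand): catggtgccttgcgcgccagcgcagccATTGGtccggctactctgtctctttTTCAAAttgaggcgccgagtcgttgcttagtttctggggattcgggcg
KIF15 (chr3:44761714-44761813, plus strand): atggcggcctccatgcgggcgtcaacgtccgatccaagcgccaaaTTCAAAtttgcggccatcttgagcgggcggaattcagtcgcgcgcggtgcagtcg
KIF18A (chr11:28108137-28108236, minus strand): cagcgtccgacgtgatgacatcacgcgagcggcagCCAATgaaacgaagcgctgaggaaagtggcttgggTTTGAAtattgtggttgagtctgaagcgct
KIF23 (chr15:69414269-69414368, plus strand): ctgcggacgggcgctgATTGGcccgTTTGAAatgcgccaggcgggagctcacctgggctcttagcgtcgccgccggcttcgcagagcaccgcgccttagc
KIF4A (chrX:70290024-70290123, plus strand): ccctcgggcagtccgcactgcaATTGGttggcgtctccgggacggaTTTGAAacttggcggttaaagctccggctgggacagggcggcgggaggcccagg
KIF14 (chr1:200620732-200620831, minus strand): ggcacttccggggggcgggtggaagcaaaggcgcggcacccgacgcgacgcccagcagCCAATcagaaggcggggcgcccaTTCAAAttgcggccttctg
KIFC1 (chr6:33391743-33391842, plus strand): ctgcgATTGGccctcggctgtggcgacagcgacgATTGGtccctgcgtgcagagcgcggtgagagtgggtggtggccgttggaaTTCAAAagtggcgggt
KIF20A (chr5:138179032-138179131, plus strand): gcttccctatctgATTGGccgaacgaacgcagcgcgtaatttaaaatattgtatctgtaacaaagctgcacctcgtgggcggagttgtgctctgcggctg
KIF5B (chr10:32056406-32056505, minus strand): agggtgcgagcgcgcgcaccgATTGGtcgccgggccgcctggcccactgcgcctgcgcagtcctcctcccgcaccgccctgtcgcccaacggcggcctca
In KIF11, KIF15, KIF18A, KIF23 and KIF4A the CHR letters began between positions -55 and -10, and in KIF14 and KIFC1 just after the start. In 6 of these 7 promoters at least 1 CCAAT box lay upstream of the CHR within the stretch shown, and in KIFC1 there were 2; KIF15 had none. KIF20A had 2 CCAAT boxes, of which 1 is within the stretch shown. KIF4B, an intronless copy of KIF4A, had the same order of a CCAAT box and a CHR.
Partner genes were searched in the same way. Of 19 promoters of spindle and cytokinesis partners 13 had the CHR letters, of 16 promoters of kinesin light chains and cargo adaptors none had them, and of 9 promoters of the G2/M transcription regulators 2 had them.

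**Figure D1:**
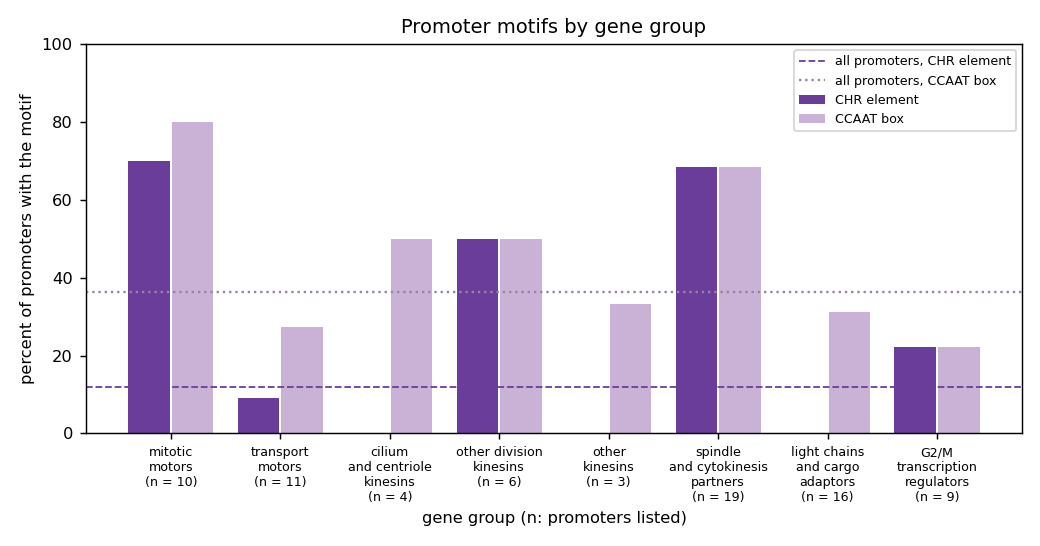
Percent of promoters (vertical axis) that hold the CHR letters TTTGAA or the CCAAT box, on either strand, in each gene group. The number of promoters listed is given for each group, and dashed and dotted lines mark all 14250 promoters. The mitotic motors (70% with the CHR letters) and the spindle and cytokinesis partners (68.4%) stand above the line at 12%. The further division kinesins (50%) and the G2/M transcription regulators (22.2%) do so too. The transport motors (9.09%) lie near it.

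In untreated 786-O cells all 10 mitotic motors were above background on both arrays, and so were 10 of 15 transport motors, 3 of 6 further division kinesins, 2 of 5 others and none of 6 cilium and centriole kinesins. In all, 25 of 42 kinesin genes (59.5%) were above background, against 50.9% of all named genes. The count was 23 at the 95th percentile of the negative controls, which the transport motors KIF3A and KIFC2 did not exceed on both untreated arrays. Probe sets differ in how strongly they respond, so signals were read against background and not ranked between genes.

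The motors that set up the spindle were above background on all 4 arrays, and none passed the test. KIF11, which slides spindle poles apart, had log2 signals of 11.90 and 12.10 without MCP-1 and 12.11 and 12.20 with it. KIF15, which can stand in for KIF11 in holding the poles apart, had 8.75 and 9.05 against 9.10 and 9.25. Both were higher in each treated array than in either untreated one, by margins far smaller than the gap between the untreated arrays of each gene. KIFC1, a motor that walks to the minus end and gathers microtubules at the poles, had 12.38 and 12.30 against 12.60 and 12.20, so its groups overlapped. The log2 fold change of KIF11 was 0.15 (95% interval -0.39 to 0.69), that of KIF15 0.27 (-0.26 to 0.81) and that of KIFC1 0.058 (-0.49 to 0.61).

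Of the motors at chromosomes, none stood apart from the spread either. KIF2C, which shortens microtubules at centromeres and so undoes wrong attachments, had 12.51 and 12.16 in untreated and 12.57 and 12.57 in treated cells, with a log2 fold change of 0.23 (-0.32 to 0.78). Its treated arrays were level, and the difference came to 0.053 in replicate pair 1 and 0.41 in pair 2. KIF18A, which calms chromosome movements before anaphase, had 11.86 and 12.04 against 11.87 and 11.96. KIF22, a motor on chromosome arms, had 12.24 and 12.41 against 12.21 and 12.30. The groups of both genes overlapped, with log2 fold changes of -0.031 and -0.069. KIF4A, another motor on chromosome arms that also sets the length of the central spindle with PRC1, had 11.33 and 11.37 against 11.33 and 11.14. Its treated arrays were the lower ones, in replicate pair 1 by a difference of -0.0018 only, and the log2 fold change was -0.12 (-0.66 to 0.43).

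The motors of cytokinesis held the highest and the lowest log2 fold changes among the mitotic ones. KIF20A, which brings the chromosomal passenger complex to the central spindle, had 12.62 and 12.28 in untreated and 12.80 and 13.00 in treated cells. Both treated arrays were above both untreated arrays, by 0.18 in replicate pair 1 and 0.72 in pair 2. The log2 fold change was 0.45 (standard error 0.26, 95% interval -0.12 to 1.01), 1.36-fold, which did not pass the test (limma, adjusted p = 1). KIF23, which forms the centralspindlin complex with RACGAP1, had 12.86 and 12.87 against 12.97 and 13.26, with a log2 fold change of 0.25 (-0.30 to 0.79). Its untreated arrays were nearly equal and its treated arrays differed. KIF14, which binds PRC1 and citron kinase at the midbody, had 10.27 and 10.35 against 9.99 and 10.15. It was the mitotic motor with the lowest log2 fold change, -0.24 (-0.78 to 0.30), lower in both replicate pairs.

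**Figure D2:**
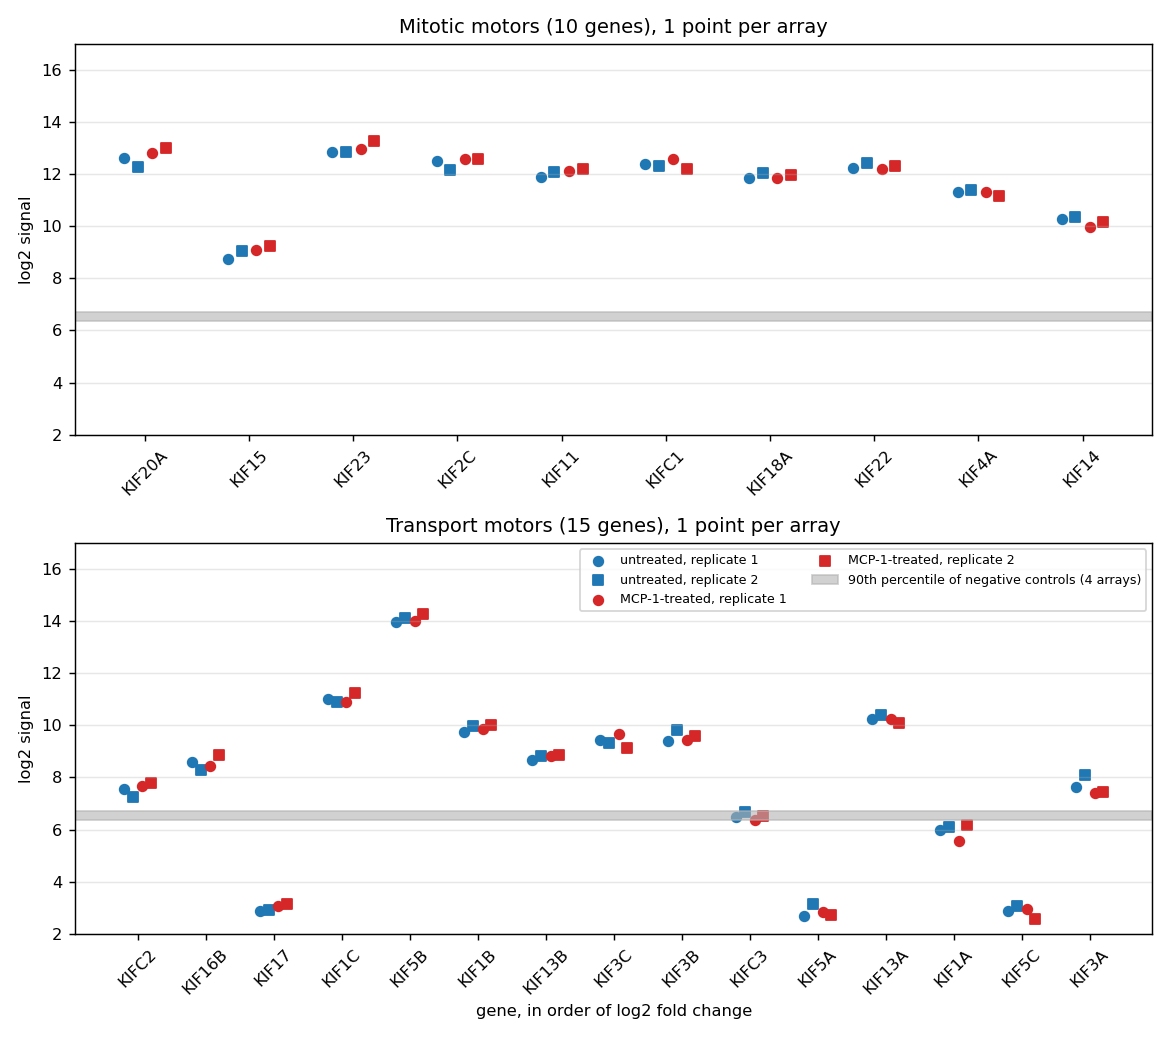
Log2 signal (vertical axis) of the 10 mitotic and 15 transport motor genes on each of the 4 arrays, blue for untreated and red for MCP-1-treated, circles for replicate 1 and squares for replicate 2. The grey band spans the 90th percentiles of the negative controls (6.36 to 6.70), all mitotic motors lie above it, and 5 transport motors lie within or below it.

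No kinesin gene passed an adjusted p of 0.05 between MCP-1-treated and untreated cells (limma, blocked by replicate number, adjusted over 21448 probe sets), where 0.0326% of probe sets did. At an unadjusted p under 0.05 the count was also 0 of 42, against 4.95% of probe sets, 2.59% higher and 2.36% lower. With no block it was again 0, against 4.51%. The methods' t-test gave 1 against 4.53%, KIF17, with all signals below background (2.87 and 2.91 against 3.07 and 3.13), and 0 at the fold of 2 that the methods also ask. No kinesin gene reached a fold of 1.5 in either direction, against 4.65% of probe sets. With 1 array left out that count was 3 without untreated replicate 1 (KIF20A at 0.62, KIF3A at -0.67 and KIF25, against 8.17% of probe sets) and 2 without MCP-1-treated replicate 1 (KIF27 and KIF2B, against 12.2%). The 42 log2 fold changes ran from -0.44 (KIF3A) to 0.45 (KIF20A), with a median of 0.052 and with 25 higher and 17 lower, beside a median of 0.013 over all probe sets. Their 95% intervals ran from -0.99 at the lowest to 1.02 at the highest. A 2-fold difference in signal in either direction was thus outside the interval of every kinesin gene except KIF20A and KIF25. Their intervals reached 1.01 and 1.02. For genes not above background on both untreated arrays, such as KIF25, the interval bounds the signal and not the RNA. The intervals rest largely on a spread that limma shares among all probe sets, since 2 arrays a group leave 1 residual degree of freedom. In these bulk samples a difference in the share of dividing cells and a difference in RNA per dividing cell cannot be told apart.
With a variance prior that follows signal level, which gives bright probe sets smaller standard errors, KIF20A passed an unadjusted p under 0.05 (95% interval 0.10 to 0.79, limma, adjusted p = 0.606), where 5.36% of probe sets passed the same unadjusted threshold. It was the only kinesin gene to do so in that fit.

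**Figure D3:**
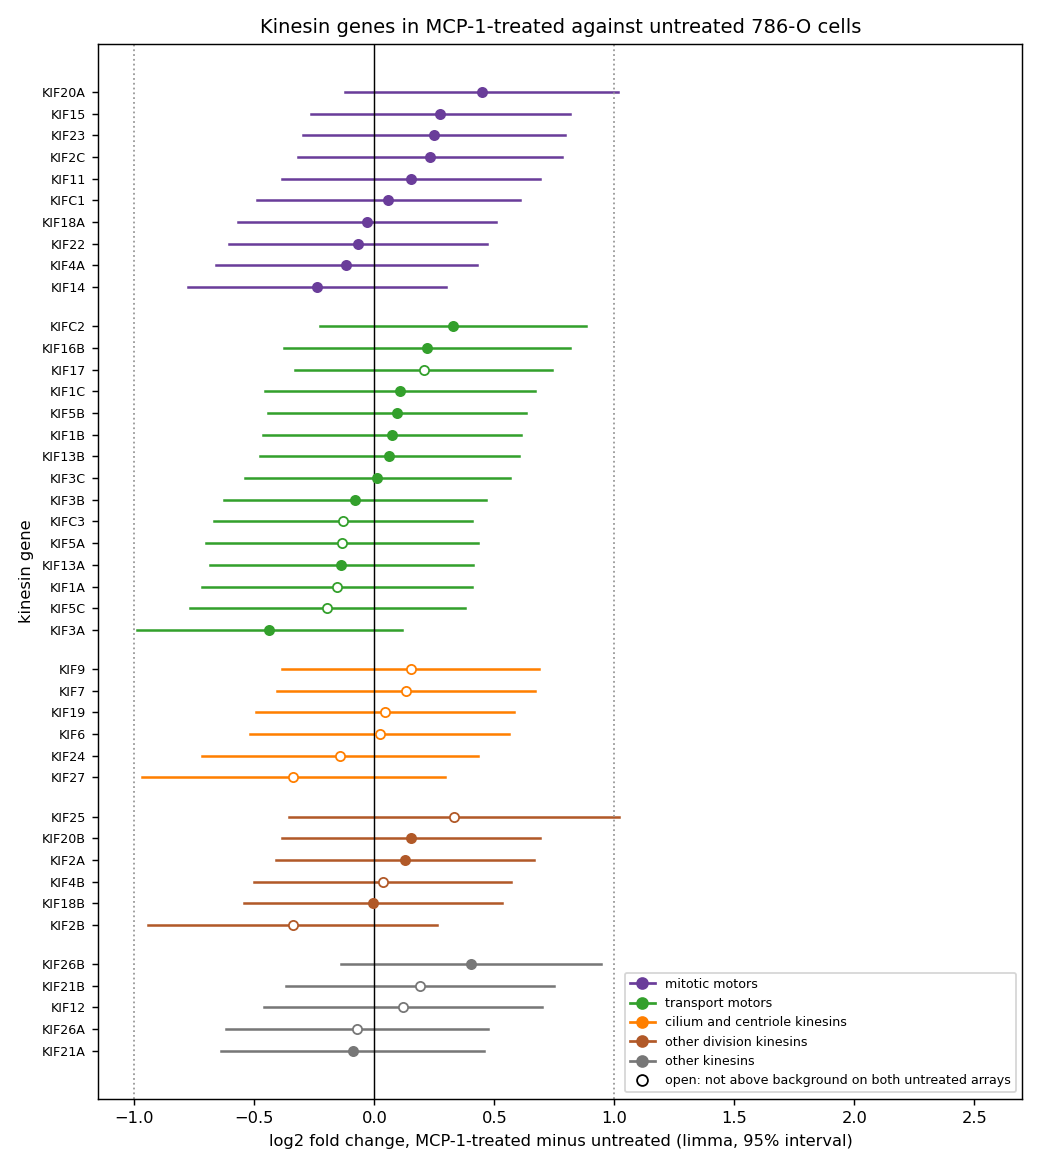
Log2 fold change of MCP-1-treated minus untreated cells (horizontal axis) for each of the 42 kinesin genes, grouped by role, with 95% intervals from limma. Open points mark genes that were not above background on both untreated arrays, dotted lines mark a fold of 2, and every interval includes 0.

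The groups did not overlap for several mitotic motors, although the differences were small. Both treated arrays were above both untreated arrays for 5 of 10 (KIF20A, KIF15, KIF23, KIF2C and KIF11), where 16.3% of probe sets did so, and below them for 2 of 10 (KIF14 and KIF4A), where 15.2% did. Among the 15 transport motors the counts were 2 and 1, and among all 42 kinesin genes 10 and 3. With 2 arrays a group this ordering says little about size: the margin of KIF11 was the step from 12.10 to 12.11, and that of KIF4A was smaller still. The steps were from 9.05 to 9.10 for KIF15 and from 12.51 to 12.57 for KIF2C.
The direction was not common to the mitotic motors. The treated mean was higher for 6 of the 10 and lower for 4, where 52.3% of all probe sets were higher. In both replicate pairs 5 of the 10 were higher and 3 lower, and the remaining genes, KIFC1 and KIF18A, differed in sign between the pairs. Over all 21448 probe sets, 5331 were higher in both pairs and 4813 lower in both.

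**Figure D4:**
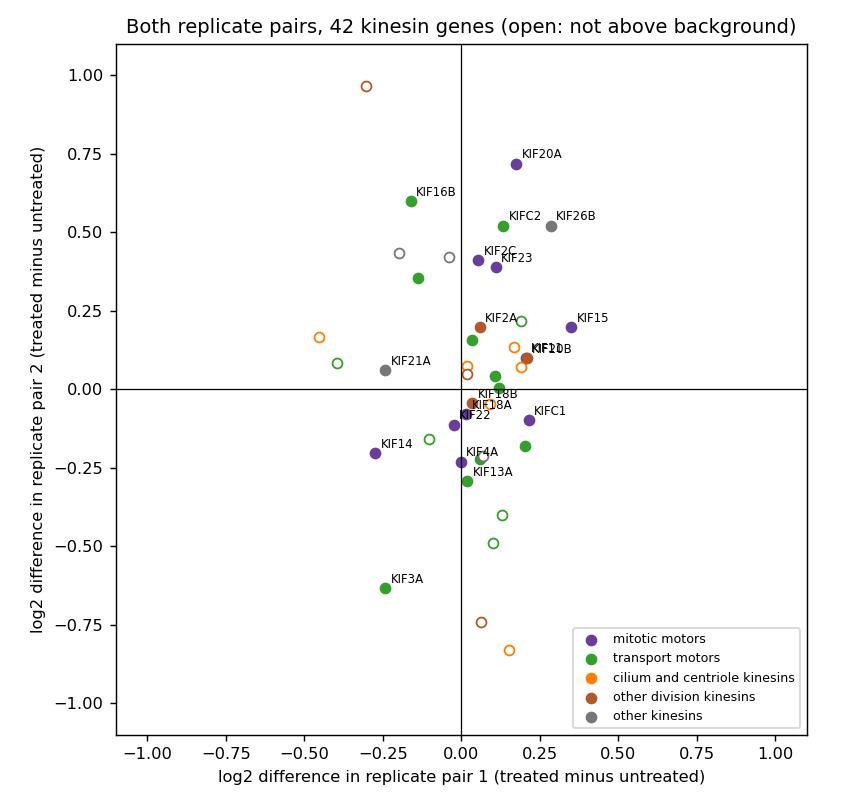
Difference of treated minus untreated log2 signal in replicate pair 1 (horizontal axis) and pair 2 (vertical axis) for the 42 kinesin genes, coloured by role, with open points for genes not above background. KIF20A (0.18 and 0.72) and KIF26B (0.28 and 0.52) lie in the upper right, and KIF3A (-0.24 and -0.63) in the lower left.

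The transport motors held the lowest log2 fold change of all kinesin genes, that of KIF3A. KIF3A and KIF3B pair, with the adaptor KIFAP3, in the heterotrimeric kinesin that carries cargo into cilia. KIF3A had log2 signals of 7.63 and 8.09 in untreated and 7.39 and 7.46 in treated cells. Its treated arrays were both lower and the untreated ones lay further apart, and the log2 fold change of -0.44 (95% interval -0.99 to 0.12) did not pass the test (limma, adjusted p = 1). KIF3B had 9.39 and 9.81 against 9.45 and 9.59, with a log2 fold change of -0.081 (-0.63 to 0.46). Its replicate pairs differed in sign, at 0.059 and -0.22. The difference between both subunits was not tested. KIFAP3, which is no member, had a log2 fold change of 0.12, and KIF3C, a relative that can replace KIF3B in neurons, one of 0.012.
KIFC2, a motor that walks to the minus end, had 7.55 and 7.27 against 7.69 and 7.79, the highest log2 fold change of the transport motors at 0.33 (-0.23 to 0.88). KIF16B, which moves early endosomes, had 8.59 and 8.28 against 8.43 and 8.88. Its groups overlapped, and the replicate pairs differed in sign, at -0.16 and 0.60. KIF13A, which moves recycling endosomes, had 10.24 and 10.40 against 10.26 and 10.11, with a log2 fold change of -0.14 and groups that overlapped.
KIF5B, the heavy chain of conventional kinesin found in most cells, had 13.98 and 14.13 against 14.02 and 14.29, so its groups overlapped. Its neuronal relatives KIF5A and KIF5C and the neuronal motor KIF1A were below background on all 4 arrays, and so was KIF17, a motor of cilia and dendrites. KIFC3 lay at background, above it on 2 of 4 arrays. The other 4 transport motors above background, KIF1B, KIF1C, KIF13B and KIF3C, had log2 fold changes between 0.012 and 0.11.

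Set side by side, mitotic and transport motors differed by an amount whose sign depended on the arrays compared. The median log2 fold change was 0.11 over the 10 mitotic and 0.012 over the 15 transport motors, beside 0.013 over all 21448 probe sets, and the difference of both medians was 0.094. In replicate pair 1 it was 0.022 and in pair 2 0.0051. Over the combinations of 1 treated and 1 untreated array it ran from -0.11 to 0.13, and between the untreated replicates it was -0.085. Without untreated replicate 2, in a fit without the block, the difference was -0.0039, and it was 0.043 over genes whose mean signal on the 4 arrays exceeded 6.11 (90% of negative control means lay below this). The median of transport motors moved more between array pairs, from -0.10 to 0.20, than that of mitotic motors, from 0.011 to 0.084. It was taken over all 15 transport motors, of which 10 were above background on both untreated arrays, as were all 10 mitotic motors. Whether the genes at or below background account for the wider movement was not tested.

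**Figure D5:**
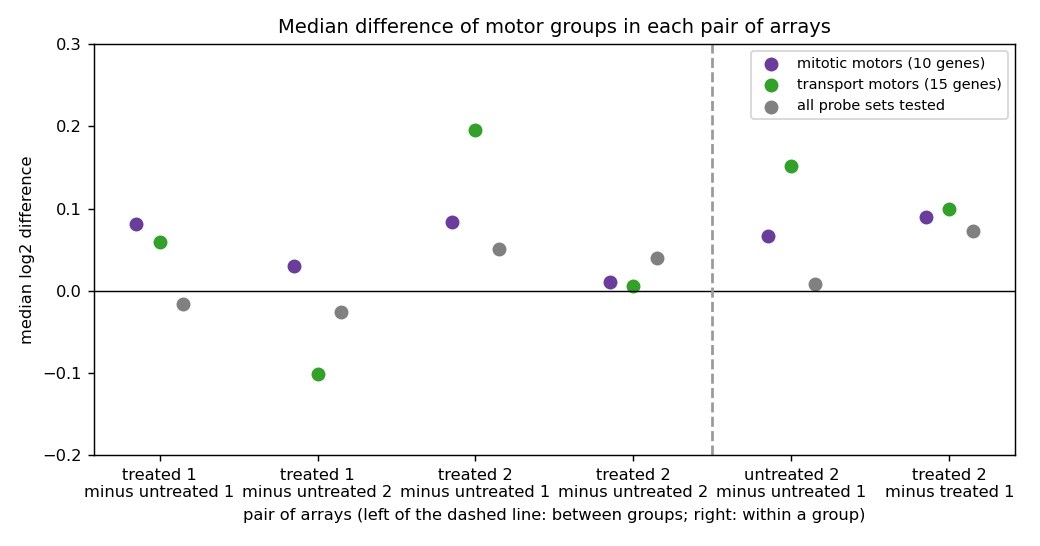
Median difference in log2 signal (vertical axis) of the 10 mitotic motors, the 15 transport motors and all probe sets tested, for each combination of 1 treated and 1 untreated array and, right of the dashed line, between the replicates of a group. The medians of transport motors between groups (-0.10 to 0.20) run on either side of the 0.15 seen between the untreated replicates.

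Outside these groups, division kinesins that are not on the list of mitotic motors split by signal. KIF20B, which acts late in cytokinesis, had 12.44 and 12.70 against 12.65 and 12.80, KIF2A, a microtubule shortener at spindle poles and in neurons, had 10.14 and 10.32 against 10.20 and 10.52, and KIF18B, which trims astral microtubules, had 10.66 and 10.59 against 10.70 and 10.54. The groups of all of them overlapped, with log2 fold changes of 0.15, 0.13 and -0.0054. KIF2B, KIF4B and KIF25 were below background on all 4 arrays. KIF4B had log2 signals between 3.62 and 3.95, whereas its near copy KIF4A had signals above 11 on every array, which are levels of different probe sets.
KIF26B, an atypical kinesin that takes part in kidney development in the mouse, had 8.95 and 8.88 in untreated and 9.23 and 9.40 in treated cells. Its groups did not overlap, and the log2 fold change of 0.40 (-0.14 to 0.95, limma, adjusted p = 1) was the second highest of all kinesin genes. KIF21A, which restrains microtubule growth at the cell cortex, had 10.24 and 10.01 against 10.00 and 10.07, with groups that overlapped. KIF12, KIF21B and KIF26A were below background on all 4 arrays.
The kinesins of the cilium and centriole lay at or below background. KIF6 and KIF19 were below it on all 4 arrays, and KIF7, which acts in Hedgehog signalling at the ciliary tip, KIF9, KIF24 and KIF27 were above it on 1 or 2. Differences of these genes, such as -0.34 for KIF27 with 0.15 and -0.83 in the replicate pairs, were therefore not read as changes of expression. In a fit that left out MCP-1-treated replicate 1 (and the block), KIF27 and KIF2B passed an unadjusted p under 0.05, both lower, where 9.76% of probe sets passed. No kinesin gene did without MCP-1-treated replicate 2 (5.63% of probe sets), without untreated replicate 1 (2.81%) or without untreated replicate 2 (3.28%).

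None of the partners of the motors passed the adjusted test. All 23 measured spindle and cytokinesis partners were above background. The treated mean was higher for 14 and lower for 9 (median log2 fold change 0.017), where 52.3% of all probe sets were higher. None passed an unadjusted p under 0.05, where 4.95% of probe sets did. Both treated arrays were above both untreated arrays for 3 of the 23 and below them for 2, where 16.3% and 15.2% of probe sets did so. INCENP, the scaffold of the passenger complex that KIF20A carries, had 11.70 and 11.81 against 11.83 and 12.48, a log2 fold change of 0.40 (-0.17 to 0.97). RACGAP1, the partner of KIF23, had one of 0.26, PRC1, the partner of KIF4A, one of -0.19, and TPX2, which brings Aurora A to the spindle, one of -0.28 with 0.019 and -0.58 in the replicate pairs.
Of 22 measured light chains and cargo adaptors, 16 were above background. The treated mean was higher for 13 and lower for 9, where 52.3% of all probe sets were higher. An unadjusted p under 0.05 was passed by 1 of the 22, where 4.95% of probe sets passed it. This was FEZ1, with signals below background on all arrays (log2 fold change -0.60, limma adjusted p = 0.960). MAPK8IP3, an adaptor of conventional kinesin, had 8.77 and 9.23 against 8.46 and 8.73, so its groups did not overlap, with a log2 fold change of -0.40, HAP1 one of 0.33 and SYBU, below background, one of 0.34. All 10 regulators of G2/M transcription were above background. Of these, 7 were higher and 3 lower, with a median of 0.095, where 52.3% of all probe sets were higher. The regulators with the smallest p were TFDP1 (0.22), RBL1 (0.20), E2F4 (0.16) and LIN52 (0.15), all of them higher. Their p was large all the same (limma, unadjusted p from 0.395 to 0.540). FOXM1 came next (limma, unadjusted p = 0.544) and was lower, with a log2 fold change of -0.15. MYBL2, the gene of B-MYB, had one of 0.079, with 0.25 and -0.090 in the replicate pairs. None of the 10 passed an unadjusted p under 0.05, where 4.95% of probe sets did.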

How the data were processed

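RNA of the 4 samples was hybridized to Clariom S arrays. The log2 signals deposited by the authors came from Expression Console 1.4, which applied SST-RMA (a transformation of the signal space, then robust multiarray averaging) per probe set. Scans were not read here, and their normalization was kept. The table held 24351 probe sets, from which 2903 controls were removed, leaving 21448 to test; symbols came from the platform annotation. Differences were fitted with limma 3.58.1 (R 4.3.3) by group, blocked on replicate number because the methods used a paired test (1 residual and 9.60 prior degrees of freedom), with Benjamini-Hochberg adjustment across every probe set tested. An exact permutation of 2 against 2 arrays cannot go below p = 0.333 and was not used. Lists were described by counts and medians. The alternatives were no block, centred or quantile-normalized arrays, a trended robust prior, filters on dim probe sets, 1 row per gene, omission of each array, each pair alone and the methods' t-test. The fit was tested on simulated data. Promoters were matched by symbol to RefSeq (14250 of 17687 genes); the first listed start was used.

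The members, role lists and partner lists were chosen with earlier results of these data known. Named with a value on every array were the 10 mitotic motors and, of each other role, the 4 genes above background with the largest absolute log2 fold change; a kinesin gene at an unadjusted p under 0.05 would have been added. Of each partner list, the 4 genes with the smallest p were named. KIF5B, KIF3B, KIFAP3, FOXM1 and MYBL2 fall outside this rule and were named for their known roles after their values were seen. KIF17 falls outside it too, and its values are given because of its result in the methods' t-test. Figures used Python 3.11.15 and matplotlib 3.10.9. The number of arrays limits the precision.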

Additional observations from a re-analysis of the deposited data

How the results depend on the processing

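No kinesin gene passed the adjusted threshold in any alternative run (0 of 42, lowest adjusted p from limma 0.50, without MCP-1-treated replicate 1). The count at an unadjusted p under 0.05 was 0 in the main setting, 1 with the trended robust prior, 1 with the methods' t-test, and 0 to 2 with each array left out in turn. With no replicate block the counts were also 0, and the difference of the mitotic and transport medians is 0.094 by construction, since dropping the block leaves every log2 fold change of this balanced design as it is. Same-numbered arrays were not shown to be pairs, since deviations from the group means correlated at -0.0466 between arrays of the same number. The mitotic median was 0.011 in replicate pair 2 alone and 0.057 to 0.11 with each array left out. The transport median was 0.059 in replicate pair 1 alone, 0.063 over genes whose mean signal exceeded that of 90% of negative controls, and -0.039 to 0.082 with each array left out. Their difference was 0.11 after quantile normalization, 0.043 over the same bright genes, 0.022 and 0.0051 in the replicate pairs alone, and -0.0039 to 0.14 with each array left out. Of the 19 kinesin genes named by the rule above, 11 kept their sign in every alternative. Still, 9 of these 11 moved by over 1.5 times with 1 array left out. Examples are KIF20A (0.28 without untreated replicate 2, 0.62 without untreated replicate 1), KIF3A (-0.21 and -0.67) and KIF2C (0.054 and 0.41). Another is KIF23 (0.10 without MCP-1-treated replicate 2, 0.39 without MCP-1-treated replicate 1). With each array left out, KIFC1 ran from -0.14 to 0.26, KIF18A from -0.12 to 0.060, KIF22 from -0.16 to 0.019, KIF16B from -0.0031 to 0.44, KIF2A from -0.032 to 0.29, KIF18B from -0.083 to 0.072 and KIF21A from -0.21 to 0.025. In a replicate pair alone, the sign turned among these 19 for KIFC1 (-0.10), KIF18A (0.016), KIF16B (-0.16), KIF13A (0.018), KIF18B (0.034) and KIF21A (0.060). The cause of these shifts was not tested. All rows of a gene averaged gave the same values, since each kinesin gene had 1 probe set. Signal over background limits the 17 kinesin genes not above background on both untreated arrays.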
